A study of Mus musculus with 9 samples.

Results

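The 38 genes described here are a list of cell cycle and proliferation genes, chosen by symbol from a given list. All 38 are among the 17527 gene symbols of the count table. They were followed in 9 RNA sequencing libraries of mouse anterior lens capsule, the membrane that covers the lens in front, with the epithelium attached to it. The libraries come from 3 young control, 3 aged control and 3 aged samples given EGCG (epigallocatechin gallate, the main catechin of green tea), and the series title names age-related cataract and the RASSF2/AKT pathway. The sources used here do not give strain, sex, ages, dose, route or length of treatment. Whether replicate libraries are separate animals or pools is not stated in the labels, so the p-values reflect only how far these samples differed among themselves, which may be technical spread.

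The lens grows throughout life. Its epithelium is a single sheet in which most cells rest and a band near the equator divides, after which daughter cells leave the cycle and become fibre cells. D-type cyclins with the kinases Cdk4 and Cdk6 phosphorylate the retinoblastoma protein family, which frees E2F factors to switch on genes of DNA replication, and CDK inhibitors oppose this step. Cyclin A, cyclin B with Cdk1, the Aurora and Polo-like kinases and the spindle checkpoint then carry the cell through mitosis. Transcripts of the mitotic genes are abundant only in dividing cells, while D cyclins, Cdk4, Rb1 and Pcna are also transcribed in resting or differentiating cells.

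Library totals ran from 13184169 to 16528179 counts, so that 3 counts were worth 0.182 to 0.228 CPM, counts at equal library size. Levels below are CPM after TMM scaling, a method that sets libraries to a common level through genes that change little, with ± for the SD of a group's 3 libraries. Cell type markers differed between the groups. The 24 retinal markers, rod genes among them, summed to between 25210.0 and 25400.0 CPM in the young libraries, 1479.0 and 1541.0 in the aged controls and 11110.0 and 11340.0 with EGCG, and none of the 24 was at 0 in all libraries. All 24 passed the test as lower with age and as higher with EGCG than in aged control. The 12 endothelial and pericyte markers summed to 159.2 to 163.3, 47.44 to 52.36 and 37.77 to 40.09 CPM in that order. The 7 lens epithelial markers summed to 665.1 to 671.0, 798.4 to 805.8 and 676.8 to 703.7 CPM, and within this list Foxe3 averaged 105.0, 187.1 and 149.4 CPM while Pdgfra averaged 48.49, 14.45 and 13.82 CPM. The part of these differences in the results below was not tested, and in a bulk sample fewer cells of a type and less RNA per cell cannot be told apart.

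The most abundant members were some of the G1, retinoblastoma family and replication genes, and many mitotic members lay near the detection limit. Per kilobase of gene length, Ccnd1 was the most abundant member, with a mean of 35.9 CPM per kb in the young libraries, 89.7 in the aged controls and 62.8 with EGCG, and it ranked at the 94.9th percentile of the genes tested. Cdk4 followed at the 90.5th percentile and Pcna at the 87.7th. Mki67, which codes for the proliferation marker Ki-67, ranked at the 8.7th percentile, with 0.467, 0.453 and 0.171 CPM per kb. Of the 38 members, 9 exceeded 20 CPM in at least 1 group and 12 stayed under 2 CPM in all 3 groups, 7 of them among the 13 mitotic members. Ccnd1 alone supplied 23.5% to 25.0% of the members' counts in the young libraries, 42.9% to 43.8% in the aged controls and 36.8% to 37.8% with EGCG.

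**Figure D1:**
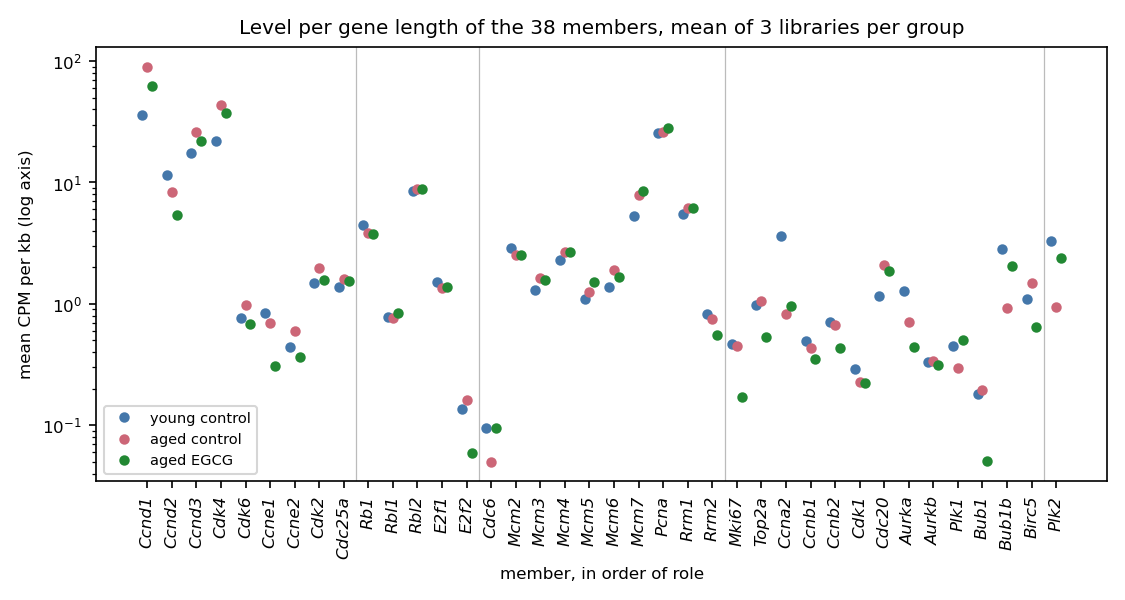
Mean level of each of the 38 members in young control, aged control and EGCG libraries (3 libraries each), in CPM per kilobase of gene length on a log axis, with members in order of role and grey lines between roles. Ccnd1 is the highest member in aged control at 89.7 CPM per kb, and most mitotic members lie below 1 CPM per kb.

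Of the 37 members with enough counts to test, 10 differed with age, 6 being higher and 4 lower in aged control. Calls were made at an adjusted p under 0.05. In that comparison 69.2% of the 13711 genes tested were called, 35.4% higher and 33.8% lower, against 10 of 37 members. With EGCG, 9 members differed from aged control, 2 higher and 7 lower, where 24.1% of all genes were called, 13.8% higher and 10.3% lower. The count of 9 of 37 is near that background, with more of the members on the lower side. Against young control, EGCG libraries differed in 13 members, 4 higher and 9 lower, where 63.6% of all genes were called, 32.3% higher and 31.4% lower. The median log2 fold change over the members was 0.06, -0.18 and -0.18 in these 3 comparisons, beside 0.02, -0.00 and -0.02 over all genes tested. The first 2 comparisons share the aged control libraries, so their effects are not independent. The split between higher and lower members moved with the scaling. With library size alone, which put the median of all genes at -0.30, 3 members were higher and 9 lower with age. With limma on log2(FPKM + 1) 5 were higher and 9 lower, and after scaling to the lens fibre list these were 5 and 6. With EGCG against aged control, scaling to the lens fibre genes gave 4 higher and 4 lower (median of all genes 0.19), and scaling to the lens epithelial genes Foxe3, Cdh1 and Pdgfra gave 5 and 4 (0.28). Against young control the latter scaling gave 11 higher and 5 lower members (0.28). Foxe3, Cdh1 and Pdgfra are part of the 7 lens epithelial markers, and scaling to the whole list was not run. Among the others, Pax6 averaged 157.5 CPM in aged control and 125.5 with EGCG, and Sox2 122.4 and 109.4. Six3 averaged 98.18 and 92.84 CPM, and Aqp1 109.7 and 115.9.

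**Figure D2:**
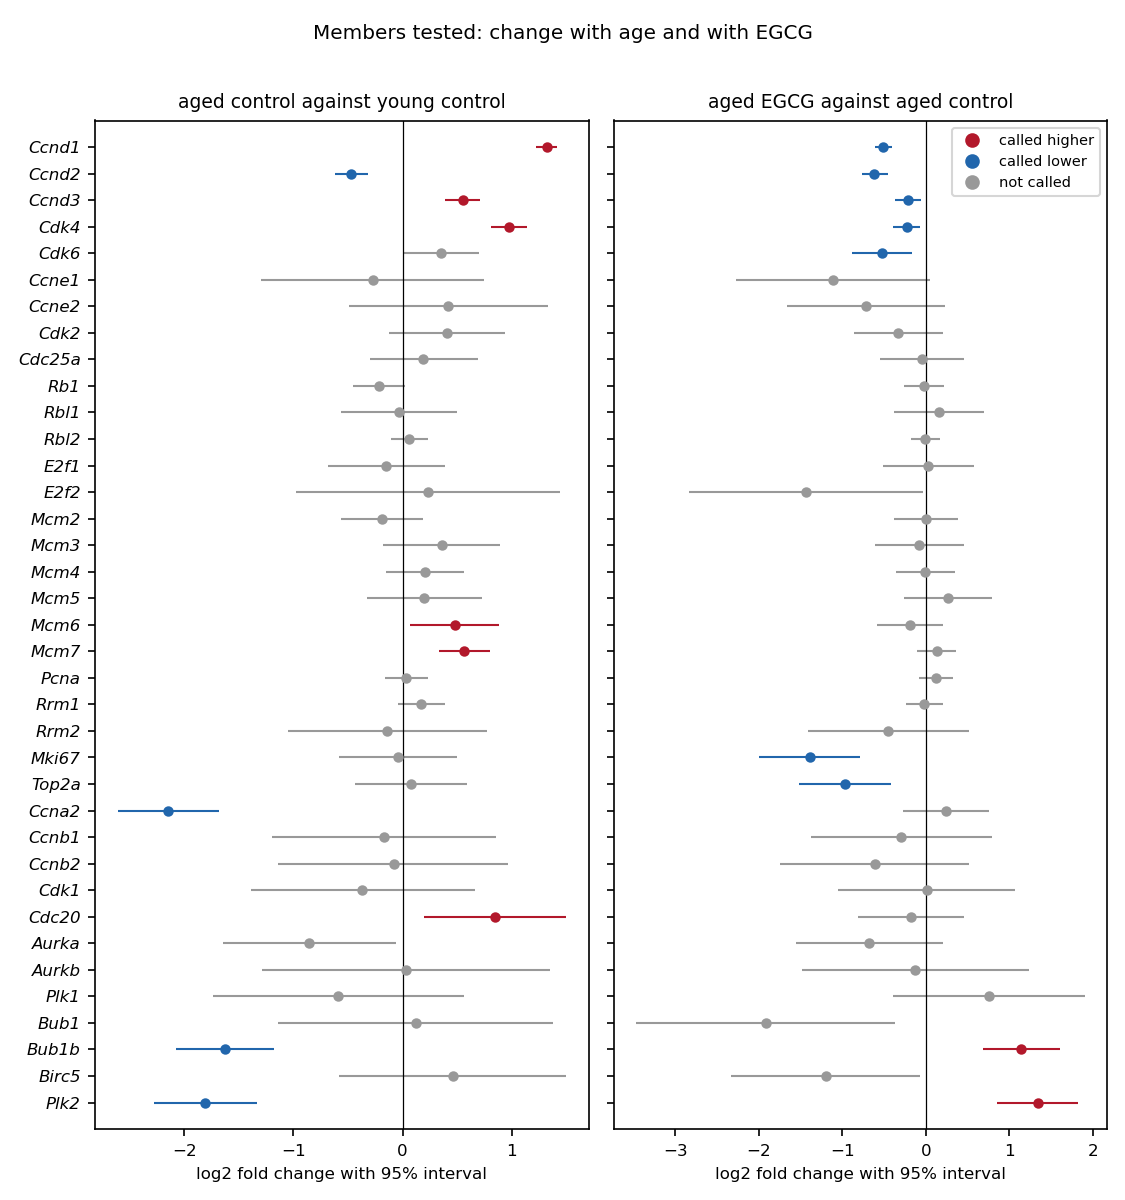
Log2 fold change with its 95% interval (x axis) for the 37 members tested, from aged control against young control (left) and aged EGCG against aged control (right), coloured by call. The called members are 6 higher and 4 lower with age, and 2 higher and 7 lower with EGCG, and the widest intervals belong to rare transcripts such as Bub1 and E2f2.

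The D cyclins moved apart with age and together with EGCG. Ccnd1 (cyclin D1, chr7:144929931-144939925, minus strand) had 132, 140 and 134 CPM in the young libraries, 346, 327 and 341 in the aged controls, and 238, 244 and 228 with EGCG. The 3 groups did not overlap, and the EGCG libraries lay between the others. Ccnd1 was 2.5-fold higher in aged than in young control (log2 fold change 1.32, SE 0.0505, adjusted p = 3.94e-27) and 1.43-fold lower with EGCG than in aged control (-0.51, 95% interval -0.61 to -0.41, adjusted p = 6.32e-12). It remained 1.75-fold above young control with EGCG (adjusted p = 9.77e-19). All 17 alternatives gave the same calls for Ccnd1 in each comparison, with an EGCG effect between -0.23 and -0.54. The -0.23 is the value after scaling to Foxe3, Cdh1 and Pdgfra. Some lens epithelial markers had the same order of group means, highest in the aged controls and between with EGCG. These were Foxe3 (105.0, 187.1 and 149.4 CPM in the young, aged control and EGCG libraries), Cdh1 (61.15, 112.2 and 83.02), Six3 and Sox2. Pax6, Pdgfra and Aqp1 did not have it. Ccnd3 and Cdk4, given below, shared this order, and the part of the epithelial markers in these results was not tested.

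Ccnd2 (cyclin D2, chr6:127125162-127152193) went the other way with age. It had 101, 89.3 and 93 CPM in the young libraries, 60.9, 72.7 and 71.2 in the aged controls, and 47.1, 44.4 and 41.8 with EGCG, with no overlap between groups. It was 1.39-fold lower with age (-0.47, SE 0.0725, adjusted p = 1.86e-07) and a further 1.54-fold lower with EGCG (-0.62, SE 0.0769, adjusted p = 7.58e-09), which left it 2.13-fold below young control (adjusted p = 2.86e-17). The age effect was -0.12 and no longer called once a trend with gene length was removed (range of adjusted p over 17 alternatives 1.28e-12 to 0.111). A ratio within each library is free of factors common to the whole library, but not of a trend with gene length. The length implied by counts and FPKM, which is not the span on the chromosome, is 3.77 kb for Ccnd1 and 8.25 kb for Ccnd2. Ccnd1 counts were 1.3, 1.56 and 1.44 times those of Ccnd2 in the young libraries, 5.68, 4.5 and 4.79 times in the aged controls, and 5.05, 5.5 and 5.46 times with EGCG. The ratio separated young from aged libraries, and its values in the aged controls and EGCG libraries overlapped.

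Ccnd3 (cyclin D3) and Cdk4, the kinase partner of the D cyclins, were higher in all aged libraries than in any young one. Ccnd3 averaged 44.1 ± 1.18 CPM in the young libraries, 64.61 ± 3.21 in the aged controls and 55.51 ± 5.42 with EGCG, 1.46-fold higher with age (adjusted p = 3.28e-08). Cdk4 (chr10:127063534-127067920) had 31.6, 30.4 and 31.9 CPM in the young libraries, 66.2, 60.2 and 58.4 in the aged controls, and 52.9, 51.3 and 53.8 with EGCG. It was 1.97-fold higher with age (0.98, SE 0.0807, adjusted p = 7.63e-15). Exons of Ccnd3 overlap Bysl on the other strand, which was 1.33-fold higher with age, from 14.14 to 18.78 CPM, and Ccnd3 has an annotated pseudogene. Exons of Cdk4 overlap Tspan31 and those of Ccnd1 overlap LTO1, also on the other strand, and neither neighbour was called in any comparison. With EGCG, Cdk4 was 1.17-fold below aged control with no overlap (-0.23, adjusted p = 0.0272), and Ccnd3 1.16-fold below it with overlap (-0.22, adjusted p = 0.0347). Both stayed above young control with EGCG, Cdk4 by 1.68-fold (adjusted p = 4.67e-11) and Ccnd3 by 1.26-fold (adjusted p = 0.000306), a Ccnd3 call that 7 of 11 alternatives in scaling, unit or model kept (range 1.5e-09 to 0.133). Cdk6, the second partner kinase, had 10.4, 12.7 and 12.5 CPM in the aged controls and 6.37, 9.05 and 9.28 with EGCG, with no overlap (-0.53, SE 0.179, adjusted p = 0.0242), and young libraries had 8.64, 11 and 8.37 CPM.

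The EGCG calls of Ccnd3, Cdk4 and Cdk6 moved with the scaling and with single libraries. Of the 11 alternatives in scaling, unit or model, 4 kept the call for Ccnd3, 5 for Cdk4 and 6 for Cdk6. Scaling to the lens epithelial genes put the median of all genes at 0.28, with Ccnd3 at 0.07 and Cdk4 at 0.05, both below that median and not called. Ccnd3 was not called without aged control library 1 (adjusted p = 0.125) or 3 (0.0669) or without EGCG library 1 (0.209) or 3 (0.0961). Cdk4 was not called without aged control library 1 (adjusted p = 0.16) or without EGCG library 1 (0.0529) or 2 (0.0965), and Cdk6 without aged control library 2 (0.0935) or 3 (0.0655) or without EGCG library 1 (0.164). Over their alternatives, adjusted p ranged from 0.0095 to 0.811 for Ccnd3, 0.0174 to 0.76 for Cdk4 and 0.0155 to 0.306 for Cdk6. With age, Cdk6 was not called (0.35, adjusted p = 0.074), but was called without aged control library 1 (adjusted p = 0.0377), without young control library 2 (0.0332) or with the length trend removed (0.85), over a range of 2.14e-05 to 0.91.

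**Figure D3:**
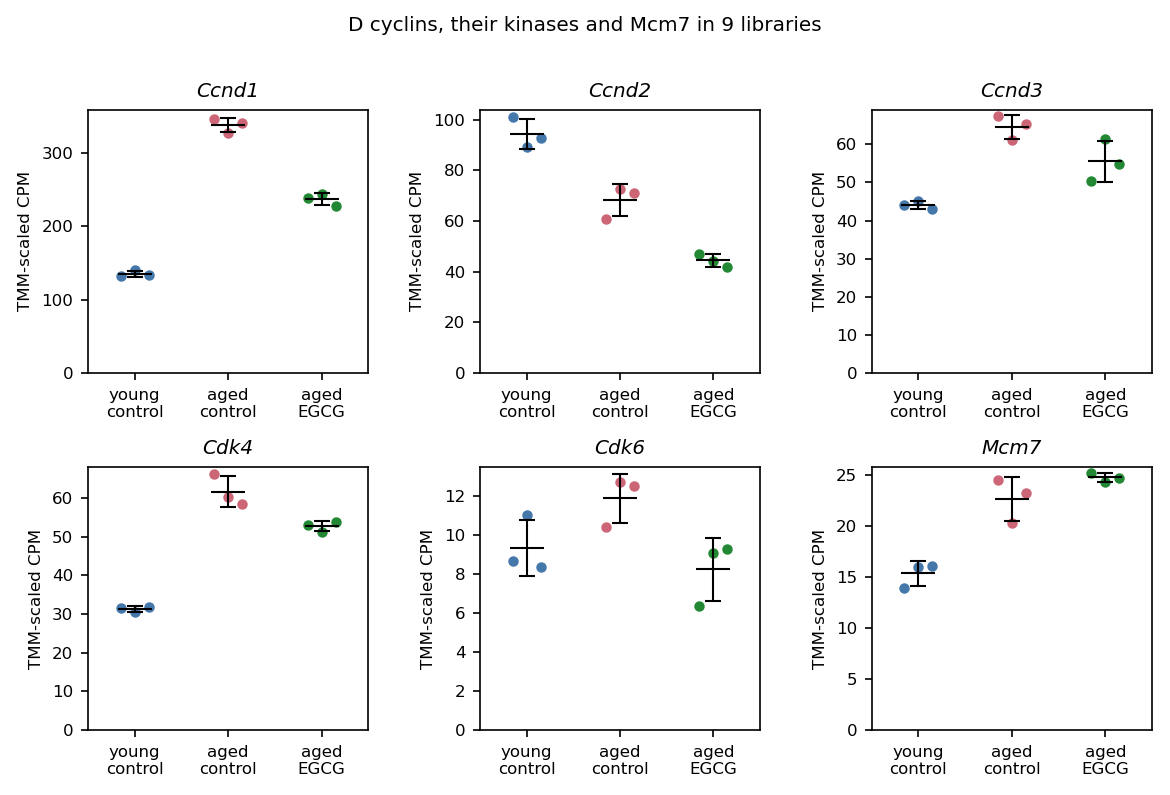
TMM-scaled CPM of Ccnd1, Ccnd2, Ccnd3, Cdk4, Cdk6 and Mcm7 in each of the 9 libraries (points), with the mean and SD of each group of 3 (bars). Ccnd1 and Cdk4 are highest in the aged controls, Ccnd2 steps down from young control to aged control to EGCG, and Mcm7 is above young control in both aged groups.

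The promoter of Cdk4 is shown because 4 copies of the E-box CACGTG, the core bound by MYC and related factors, stand in it. The 250 bases before the RefSeq start (GRCm38.p6, chr10:127063285-127063534, plus strand) are printed with these copies in capitals.
Cdk4: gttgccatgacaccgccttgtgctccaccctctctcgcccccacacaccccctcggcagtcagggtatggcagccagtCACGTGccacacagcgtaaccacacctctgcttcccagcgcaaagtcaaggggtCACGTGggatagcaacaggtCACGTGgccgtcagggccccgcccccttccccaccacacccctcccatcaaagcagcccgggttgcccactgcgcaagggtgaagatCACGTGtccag
Among the 31 members with a promoter in the RefSeq table, Cdk4 and Cdk6 held this word on either strand, as did 6.02% of the 32851 promoters in the table. A match of letters is a description and does not show binding. Ccnd1, Ccnd2, Ccna2, Ccne2, Rb1, Mcm4 and Aurkb have no entry in that table.

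The remaining G1 members were rare. Ccne1, one of the cyclin E genes that start DNA replication with Cdk2, had 28, 25 and 26 counts in the young libraries, 29, 10 and 18 in the aged controls and 8, 17 and 1 with EGCG. It was not called with age or with EGCG, and was 2.61-fold below young control with EGCG (-1.39, SE 0.559, adjusted p = 0.0282). That call was lost without EGCG library 1 (adjusted p = 0.0667) or 3 (0.174), without young control library 1 (0.0806), 2 (0.0571) or 3 (0.0614), and after lens epithelial scaling (0.07). The difference from aged control was called only without EGCG library 2 (adjusted p = 0.041). Over the alternatives, adjusted p ran from 0.00481 to 0.174 against young control and from 0.041 to 0.524 against aged control. Ccne2, Cdk2 and Cdc25a, the phosphatase that activates Cdk2, averaged between 1.134 and 5.971 CPM in the 3 groups and were called in no comparison.

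The 7 CDK inhibitors, the opponents of these kinases, were all higher in aged than in young control, where 35.4% of all genes were called higher. Cdkn1a (p21) averaged 1.577 ± 0.255 CPM in the young libraries, 85.31 ± 6.77 in the aged controls and 89.97 ± 3.2 with EGCG. Cdkn2a, which codes for p16 and p19, averaged 1.073, 16.57 and 14.82 CPM, Cdkn2b (p15) 3.565, 49.14 and 43.15 CPM, and Cdkn1c (p57), linked to lens fibre cell cycle exit, 202.9, 450.3 and 424.3 CPM. None of the 7 was called between EGCG and aged control by edgeR, beside 24.1% of all genes, and 1 of them, Cdkn2b, had an unadjusted p under 0.05. Against young control 6 of the 7 were higher with EGCG, beside 32.3% of all genes, the exception being Cdkn2c.

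The retinoblastoma family and its E2F partners were called in no comparison. Rb1 had 22.1, 22.3 and 22.1 CPM in the young libraries, 19.1, 18.9 and 19.3 in the aged controls and 19.9, 20.4 and 16.3 with EGCG. Young and aged control did not overlap, yet the difference missed the threshold (-0.22, 95% interval -0.45 to 0.02, adjusted p = 0.0964), and 6 of 11 alternatives in scaling, unit or model called it lower, over an adjusted p range of 9.15e-05 to 0.535. Rbl2 (p130, the family member found in resting cells) averaged 41.55, 43.31 and 43.13 CPM, with an interval of -0.18 to 0.17 for the EGCG effect, and Rbl1 (p107) 4.301, 4.215 and 4.698 CPM. For Rbl2 the sign of the age effect turned with the scaling, from 0.06 to -0.26 with library size alone. E2f1 averaged between 4.192 and 4.666 CPM. E2f2 had 15, 11 and 7 counts in the young libraries, 9, 14 and 11 in the aged controls and 4, 3 and 5 with EGCG, and its EGCG effect of -1.44 had an adjusted p of 0.137.

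Of the 9 replication members tested, 2 were called with age, both higher, and none with EGCG against aged control by edgeR, where none had an unadjusted p under 0.05. Of all genes tested, 69.2% were called with age and 24.1% with EGCG. MCM proteins form the helicase that opens DNA, and Mcm7 (chr5:138164583-138172422) had 13.9, 16 and 16.1 CPM in the young libraries, 24.5, 20.3 and 23.2 in the aged controls and 25.2, 24.3 and 24.7 with EGCG. It was 1.48-fold higher with age, with no overlap (0.56, SE 0.118, adjusted p = 4.35e-05; 0.24 and not called with library size alone, range 1.1e-05 to 0.0679), and 1.61-fold higher in EGCG than in young control libraries (0.69, SE 0.117, adjusted p = 1.69e-06), and its EGCG effect was not called (0.13, 95% interval -0.11 to 0.36). That effect was called higher after lens fibre scaling (0.31) and lens epithelial scaling (0.41), within a range of adjusted p from 0.00812 to 0.842, and those scalings put the median of all genes at 0.19 and 0.28. Its exons overlap those of Cops6 on the other strand, which was 1.87-fold higher with age, and no source used here says whether the counting used strand. Mcm6 averaged 6.1, 8.502 and 7.453 CPM, 1.39-fold higher with age (0.48, adjusted p = 0.0329), a call lost without aged control library 1 (adjusted p = 0.052) or 3 (0.101) or young control library 3 (0.181) and kept in 5 of 11 alternatives in scaling, unit or model (range 0.0112 to 0.498). Mcm2, Mcm3, Mcm4 and Mcm5 averaged between 3.758 and 9.691 CPM and were called in no comparison, though Mcm2 was called lower with age with library size alone (-0.51) and in both FPKM settings (-0.37 and -0.49). Under lens epithelial scaling Mcm4 (0.51) and Mcm5 (0.77) were called higher in EGCG than in young control libraries.

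Pcna, the sliding clamp of the DNA polymerases, had 34.7, 28.3 and 32.9 CPM in the young libraries, 30.9, 34.4 and 32.9 in the aged controls and 33.7, 38.1 and 34.9 with EGCG. The 3 groups overlapped. Its age effect of 0.03 became -0.29 with library size alone and -0.39 with the length trend removed, so its direction with age depends on the scaling. Its EGCG effect of 0.12 was not called, but was called at 0.31 after lens fibre scaling and 0.41 after lens epithelial scaling, with adjusted p from 0.00204 to 0.746 over the alternatives. Pcna also has 2 annotated pseudogenes, between which the counting could split reads. Rrm1, the large subunit of ribonucleotide reductase, averaged 22.03, 24.83 and 24.5 CPM, and Rrm2, the subunit made in S phase, 1.81, 1.651 and 1.209 CPM, both without a call. Under lens epithelial scaling Rrm1 was called higher in EGCG than in young control libraries (0.45). Cdc6, which loads the helicase, was too rare to test, with 5, 11 and 6 counts in the young libraries, 0, 5 and 5 in the aged controls and 0, 3 and 15 with EGCG. Over the 10 replication members the summed level was 99.6 to 108 CPM in the young libraries, 114 to 120 in the aged controls and 117 to 126 with EGCG.

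Promoters of mitotic genes often hold a pair of short words, CCAAT, bound by NF-Y, and the cell cycle homology region (CHR, here TTTGAA or TTCGAA), bound by the DREAM and MuvB complexes that hold these genes down in resting cells. Searched on both strands in the 250 bases before the start, CCAAT was present in 10 of 11 mitotic members with a sequence (90.9%) and the CHR in 6 of 11 (54.5%), beside 33.8% and 17.1% of all promoters in the table. Of the 9 replication members with a sequence 8 held CCAAT, and 4 held an E2F word (TTTCCCGC, TTTCGCGC or TTTGGCGC), which 1.53% of all promoters held. The promoters of Mki67 and Top2a, the mitotic members that were lower with EGCG, and of Bub1b, which was higher, are printed with CCAAT and CHR words in capitals on either strand. They lie at chr7:135716380-135716629 (minus strand), chr11:99024190-99024439 (minus strand) and chr2:118597961-118598210 (plus strand) of GRCm38.p6.
Mki67: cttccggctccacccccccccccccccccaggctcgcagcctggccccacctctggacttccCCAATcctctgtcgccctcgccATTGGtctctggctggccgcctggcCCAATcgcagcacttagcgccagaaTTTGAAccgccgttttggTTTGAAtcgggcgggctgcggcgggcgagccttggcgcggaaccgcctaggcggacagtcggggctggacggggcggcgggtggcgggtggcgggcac
Top2a: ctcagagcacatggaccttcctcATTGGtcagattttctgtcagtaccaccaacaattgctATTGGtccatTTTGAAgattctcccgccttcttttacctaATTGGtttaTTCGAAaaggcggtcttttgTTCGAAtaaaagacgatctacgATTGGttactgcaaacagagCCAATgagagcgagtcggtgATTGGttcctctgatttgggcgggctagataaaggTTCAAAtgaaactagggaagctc
Bub1b: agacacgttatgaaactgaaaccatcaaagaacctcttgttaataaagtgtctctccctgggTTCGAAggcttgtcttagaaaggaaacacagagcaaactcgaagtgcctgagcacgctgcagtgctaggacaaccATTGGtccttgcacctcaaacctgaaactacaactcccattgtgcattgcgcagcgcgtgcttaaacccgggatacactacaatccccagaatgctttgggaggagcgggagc
The Mki67 window holds 3 CCAAT and 2 CHR words, that of Top2a 6 and 4, and that of Bub1b 1 of each. A match of letters does not show binding or function, and the part of these words in the differences was not tested.

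Mki67 and Top2a, the topoisomerase that untangles chromosomes before division, were at young levels in the aged controls and lower with EGCG. Mki67 (chr7:135689784-135716361) had 79, 75 and 73 counts in the young libraries, 64, 68 and 61 in the aged controls and 24, 31 and 17 with EGCG. In CPM these are 4.704 ± 0.262, 4.568 ± 0.162 and 1.728 ± 0.411, and every EGCG library lay below every other library. With EGCG it was 2.62-fold below aged control (-1.39, SE 0.3, adjusted p = 0.000321) and 2.7-fold below young control (-1.43, adjusted p = 4.71e-05), while the age effect was -0.04 with a 95% interval of -0.58 to 0.5. Top2a (chr11:98992943-99024189) had 4.48, 5.67 and 5.38 CPM in the young libraries, 6.46, 3.84 and 6.12 in the aged controls and 3.51, 2.47 and 2.38 with EGCG. It was 1.96-fold lower with EGCG (-0.97, SE 0.274, adjusted p = 0.00635) with no overlap, and 1.86-fold below young control (adjusted p = 0.00419). Both EGCG effects held in all 17 alternatives, at -1.57 to -0.27 for Mki67 and -1.17 to -0.35 for Top2a. Within each library, Mki67 counts were 0.144, 0.165 and 0.136 of those of Pcna in the young libraries, 0.143, 0.133 and 0.144 in the aged controls and 0.0522, 0.0558 and 0.0374 with EGCG, which again puts all EGCG libraries below the rest. The 6 markers of pigmented iris and ciliary tissue also had their lowest sum with EGCG, at 162.6 to 169.3 CPM beside 210.2 to 216.1 in young and 246.3 to 263.2 in the aged controls. Of these 6, 1 was called higher and 2 lower with EGCG than in aged control. The 15 lens fibre markers were lowest with EGCG too, at 34070.0 to 35520.0 CPM beside 36100.0 to 36580.0 in young and 39100.0 to 40750.0 in the aged controls. So were the endothelial and pericyte markers. The part of these lists in the result was not tested.

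Ccna2 (cyclin A2, chr3:36564865-36572150) had 10.3, 14 and 12.7 CPM in the young libraries, 2.61, 2.63 and 3.1 in the aged controls and 3.73, 3.77 and 2.3 with EGCG. It was 4.43-fold lower with age (-2.15, SE 0.232, adjusted p = 2.72e-11), the largest age effect among the members, and did not differ detectably with EGCG (0.24, 95% interval -0.28 to 0.76). EGCG libraries stayed 3.75-fold below young control (adjusted p = 5.63e-10). The summed endothelial and pericyte markers were also high in young control and low in both aged groups, but they were lowest with EGCG. The summed retinal and red cell markers had the order of the Ccna2 means, highest in young control and lowest in the aged controls. The part of these lists in the result was not tested. Exons of Ccna2 overlap Exosc9 on the other strand, which was 1.3-fold higher with age.

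Aurka, the Aurora kinase of the spindle poles, had 3.22, 2.93 and 2.5 CPM in the young libraries, 1.86, 1.21 and 1.7 in the aged controls and 0.951, 1.1 and 0.92 with EGCG, with no overlap between the 3 groups. Neither step was called, with -0.86 for age (adjusted p = 0.0513) and -0.68 for EGCG (adjusted p = 0.298), whereas EGCG libraries were 2.89-fold below young control (-1.53, SE 0.419, adjusted p = 0.00146). The age effect was called lower in 8 of 11 alternatives in scaling, unit or model (range of adjusted p 8.54e-05 to 0.158). Cdc20, the activator of the anaphase-promoting complex, went the other way, with 2.077 ± 0.582, 3.731 ± 0.583 and 3.296 ± 0.0766 CPM, 1.8-fold higher with age (0.85, adjusted p = 0.0182). That call was lost without aged control library 2 (adjusted p = 0.0611) or young control library 3 (0.111), with library size alone (0.138) and with the length trend removed (0.145). Its adjusted p ranged from 0.0115 to 0.145. Its exons overlap Elovl1 on the other strand, which was 1.9-fold higher with age.

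The checkpoint kinase gene Bub1 had 8, 6 and 24 counts in the young libraries, 18, 8 and 10 in the aged controls and 6, 1 and 2 with EGCG. It was called lower in EGCG than in young control libraries (-1.8, adjusted p = 0.0378) although the groups touched, and not against aged control (-1.92, adjusted p = 0.0636). The first call was lost without EGCG library 2 (adjusted p = 0.161) or 3 (0.108) or young control library 3 (0.383), and the second appeared without EGCG library 1 (0.0337), with ranges of 0.0174 to 0.383 and 0.0337 to 0.253. Of 10 alternatives in scaling, unit or model, 6 kept the first call. Ccnb1, Ccnb2, Cdk1, Aurkb, Plk1 and Birc5 (survivin) averaged between 0.6328 and 1.455 CPM in every group, with 1 to 34 counts per library, and were called in no comparison. At this depth their intervals reach past 2-fold, as for Cdk1 with EGCG (-1.05 to 1.07). Some FPKM settings called 3 of these genes lower. In EGCG against young control these were Ccnb2 with log2(FPKM + 1) (-0.35) and log2(FPKM + 0.1) (-0.86), and Ccnb1 with log2(FPKM + 1) (-0.21). With age it was Plk1 with log2(FPKM + 0.1) (-0.79). Over the 13 mitotic members, the summed level was 44.0 to 45.2 CPM in the young libraries, 26.1 to 30.3 in the aged controls and 21.0 to 28.0 with EGCG, and the last 2 groups overlapped. Without Ccna2 and Bub1b, the other 11 summed to 20.3 to 22.8, 19.5 to 25.4 and 12.2 to 15.7 CPM. In that sum young and aged control overlapped and the EGCG libraries lay below both. Ccna2 and Bub1b were left out after their results were seen, and the 11 include Mki67 and Top2a, both called lower with EGCG. The sum is therefore no separate evidence on the mitotic members as a class.

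**Figure D4:**
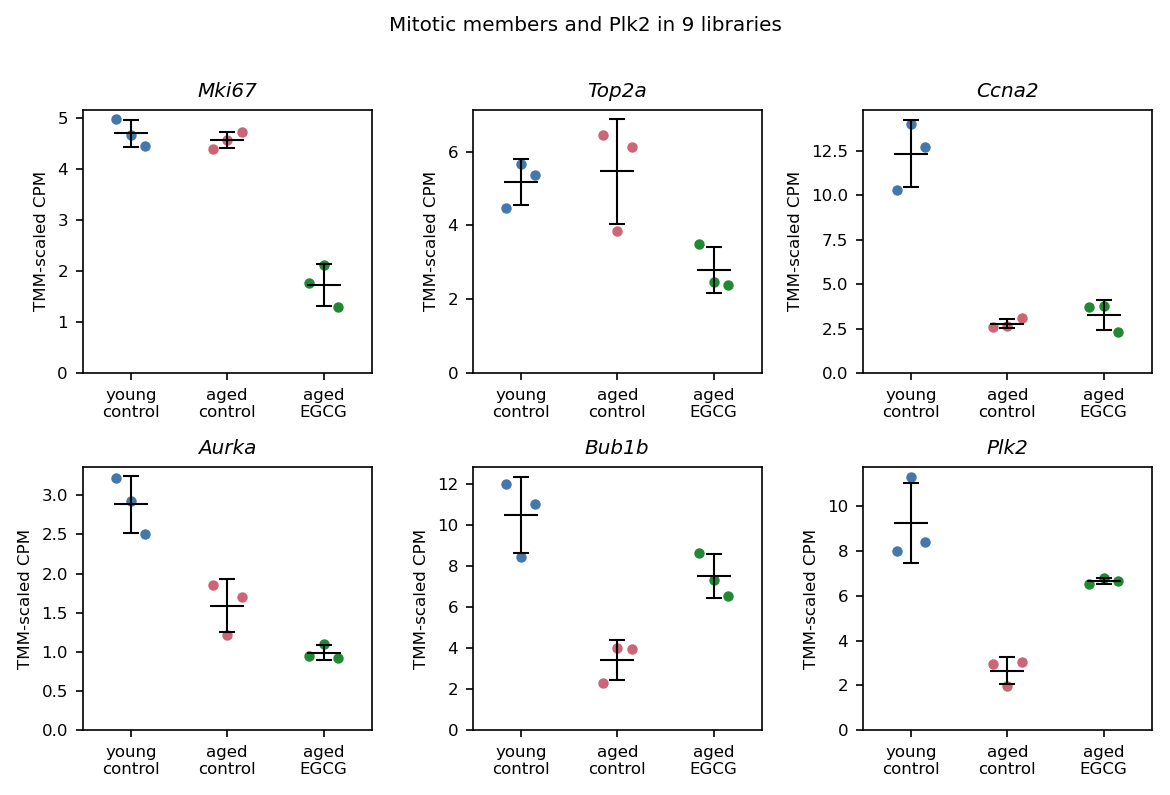
TMM-scaled CPM of Mki67, Top2a, Ccna2, Aurka, Bub1b and Plk2 in each of the 9 libraries (points), with the mean and SD of each group of 3 (bars). Mki67 and Top2a are low with EGCG, Ccna2 is low in both aged groups, and Bub1b and Plk2 are low in the aged controls and intermediate with EGCG.

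Bub1b and Plk2 were the members that fell with age and were higher again with EGCG. Bub1b codes for BubR1, a spindle checkpoint protein whose shortage in mice is known to bring early ageing with cataract. It had 12, 8.41 and 11 CPM in the young libraries, 2.27, 3.98 and 3.95 in the aged controls and 8.64, 7.33 and 6.52 with EGCG. All aged control libraries lay below all others. Bub1b (chr2:118598211-118641591) was 3.09-fold lower with age (-1.63, SE 0.223, adjusted p = 1.43e-08) and 2.21-fold higher with EGCG than in aged control (1.14, SE 0.23, adjusted p = 0.000119). Plk2, a Polo-like kinase of the stress response and of neurons, is shown with its promoter (GRCm38.p6, chr13:110394794-110395043, plus strand) because that holds a full CRE, TGACGTCA in capitals, the word bound by CREB, which 1.55% of all promoters held.
Plk2: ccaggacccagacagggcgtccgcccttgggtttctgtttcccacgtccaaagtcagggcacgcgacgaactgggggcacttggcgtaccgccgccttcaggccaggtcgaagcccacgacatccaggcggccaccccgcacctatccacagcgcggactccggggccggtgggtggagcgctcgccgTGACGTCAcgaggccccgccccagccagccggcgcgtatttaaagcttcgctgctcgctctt
Mcm5 was the other member with this word.

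Plk2 (chr13:110395046-110400844) had 8.01, 11.3 and 8.43 CPM in the young libraries, 2.96, 1.95 and 3.02 in the aged controls and 6.51, 6.79 and 6.67 with EGCG, with no overlap between groups. It was 3.5-fold lower with age (-1.81, SE 0.235, adjusted p = 3.81e-09) and 2.52-fold higher with EGCG (1.34, SE 0.242, adjusted p = 2.28e-05). The EGCG effects held in all 17 alternatives, at 0.72 to 1.43 for Bub1b and 0.86 to 1.62 for Plk2. EGCG libraries remained slightly below young control, by 1.4-fold for Bub1b with overlap (adjusted p = 0.0376) and 1.39-fold for Plk2 (adjusted p = 0.0494). The Bub1b call was lost without EGCG library 2 (adjusted p = 0.0846) or 3 (0.137) or young control library 1 (0.188) or 3 (0.111), within a range of 0.00405 to 0.439. Lens fibre (0.0641) and lens epithelial scaling (0.439) lost it too. The Plk2 call was lost without EGCG library 1 (adjusted p = 0.1), 2 (0.0833) or 3 (0.0878), without young control library 2 (0.299) or 3 (0.0599), and with a replicate block (0.0591), within a range of 0.00344 to 0.51. Lens fibre scaling (0.0856), no filter on low counts (0.0615) and lens epithelial scaling (0.51) lost the Plk2 call as well. The retinal markers had the same order of groups, highest in the young libraries, lowest in the aged controls and between with EGCG, and so did the red cell markers, which summed to 205.4 to 215.1, 6.334 to 7.975 and 20.15 to 25.54 CPM in the young, aged control and EGCG libraries. Of the 5 red cell markers tested, 5 were lower with age and 4 higher with EGCG. The part of either list in the Bub1b and Plk2 results was not tested.

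**Figure D5:**
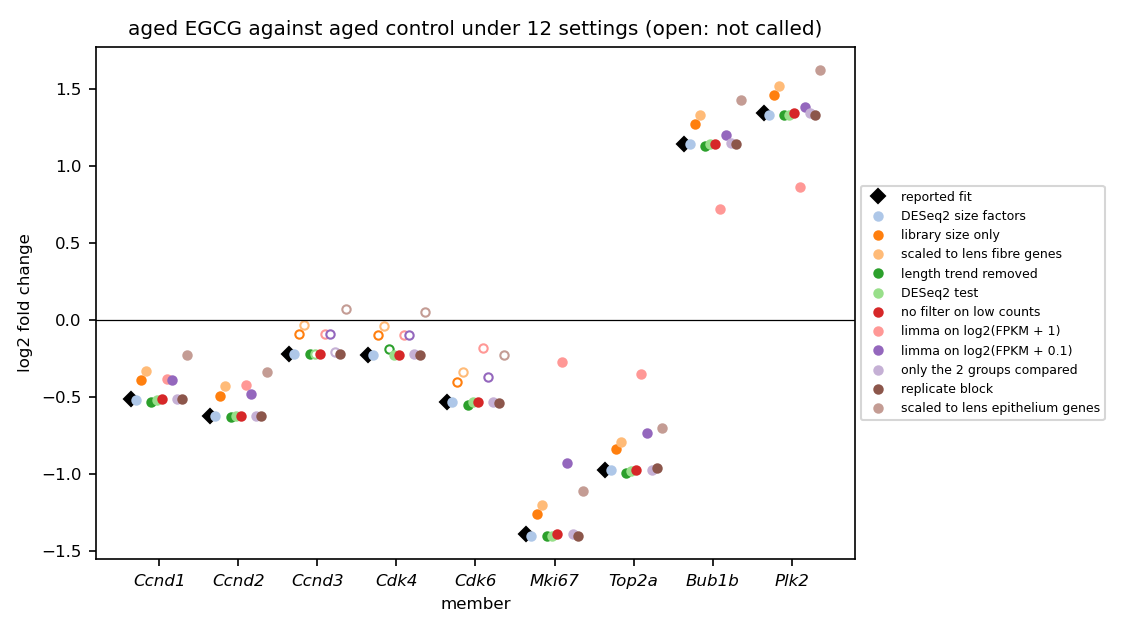
Log2 fold change of aged EGCG against aged control (y axis) for the 9 members called there, in the reported fit (black diamond) and 11 alternatives in scaling, unit or model (circles, open where not called). Ccnd1, Ccnd2, Mki67, Top2a, Bub1b and Plk2 are filled throughout, while Ccnd3, Cdk4 and Cdk6 lose their call in several.

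Another 115 cell cycle genes outside the list were set beside the members, and 102 could be tested. With age 27 were higher and 11 lower, against 35.4% and 33.8% of all genes, with a median of 0.06, and with library size alone 14 were higher and 25 lower. With EGCG 1 was higher and 1 lower, against 13.8% and 10.3% of all genes. There edgeR gave 8 an unadjusted p under 0.05, and the median was -0.06. The higher one was Spc25, a kinetochore gene, at 34.34 ± 2.33 CPM in the young libraries, 4.115 ± 0.952 in the aged controls and 11.75 ± 1.43 with EGCG (2.83-fold higher with EGCG, adjusted p = 3.31e-10), the order of groups of Bub1b, Plk2 and the retinal and red cell markers. The lower one was Wee1, the kinase that holds back Cdk1, at 3.247, 6.386 and 3.637 CPM (1.75-fold lower, adjusted p = 0.0208). With age, Cdc7, the kinase that fires replication origins, was 5.63-fold lower, from 10.4 to 1.833 CPM (adjusted p = 8.73e-12), and stood at 2.57 CPM with EGCG, the order of groups of Ccna2. Tfdp2, an E2F partner, was 1.97-fold higher with age, Racgap1 1.74-fold and the polymerase subunit gene Pold2 1.61-fold. Against young control, EGCG libraries had 23 of the 102 higher and 17 lower, against 32.3% and 31.4% of all genes. Scaling to the lens epithelial genes gave 38 and 8 there, and 19 and 0 against aged control.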

How the data were processed

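RNA sequencing counts of 9 libraries in 3 groups of 3 were analysed, with groups taken from the titles. Per the labels, total RNA of anterior lens capsule was the input of a SMARTER mRNA-Seq library kit. The build was GRCm38 (mm10), per the submitters' processing notes, and no source used here names the aligner, counter, annotation or strand. The authors deposited whole-number read counts per gene symbol and an FPKM table, in which counts are divided by gene length and library total. Counts were tested with edgeR 4.0.16 (quasi-likelihood F test, R 4.3.3), with TMM factors and filterByExpr, which left 13711 of 17527 genes, all 9 libraries in 1 fit, two-sided, with Benjamini-Hochberg adjustment over all genes tested and calls at 0.05. The 3 comparisons share libraries. The biological coefficient of variation was 7.9%. Lengths for CPM per kb are those implied by counts and FPKM. Intervals hold counting error and library spread, nothing else. Alternatives were DESeq2 1.42.0 (its test, and its size factors), library size alone, lens fibre scaling, removal of a length trend, no filter, limma 3.58.1 on log2(FPKM + 1) or log2(FPKM + 0.1), only the 2 groups compared, a replicate block, each library left out and, chosen after seeing the data, scaling to Foxe3, Cdh1 and Pdgfra. Promoter sequences are RefSeq's for GRCm38.p6, and gene positions are those of GENCODE for GRCm38. A member was counted as holding a word if any of its promoters did, while the shares of all promoters count each promoter singly. The members and the lists were chosen with earlier results of these data known. All 38 members are accounted for, and other cell cycle genes are named if changed and among the 4 smallest p-values of their list at 1 CPM or more, of which the text gives some.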

Additional observations from a re-analysis of the deposited data

How the results depend on the processing

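Of 1883 recomputed member effects, 1571 kept their direction and their side of the threshold, 185 changed sign or came to 0 after rounding with no call on either side, 73 lost a call, 44 gained one and 10 turned sign with a call on either side. The causes were not tested. The turned effects with age were Rbl2 at -0.26 with library size alone, -0.23 with log2(FPKM + 1) and -0.26 with log2(FPKM + 0.1), and Pcna at -0.29, -0.27 and -0.28 with the same settings and -0.39 with the length trend removed. With EGCG against aged control they were Ccnd3 at 0.07, Cdk4 at 0.05 and Rbl2 at 0.28 under lens epithelial scaling, which puts the median of all genes at 0.28. With age, higher members numbered 3 (6 reported) with library size alone, and lower ones 9 (4 reported) with library size alone, 9 with log2(FPKM + 1) and 10 with log2(FPKM + 0.1). With EGCG against aged control, higher members numbered 4 (2 reported) with lens fibre and 5 with lens epithelial scaling, and lower ones 4 (7 reported) with library size alone, either scaling and either FPKM setting. Against young control, lens epithelial scaling gave 11 higher (4 reported) and 5 lower (9 reported). Leaving out 1 library gave 5 to 7 lower members there. Of the other cell cycle genes, 2 were changed by EGCG as reported, 4 with library size alone, 9 with lens fibre scaling, 9 with log2(FPKM + 1), 8 with log2(FPKM + 0.1), 19 with lens epithelial scaling and 1 to 4 with 1 library left out.

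With the replicate number as a block, 10, 9 and 12 members were changed in the 3 comparisons (10, 9 and 13 without it). Libraries of the same number did not deviate together (r across genes between -0.02 and 0.03), not every library correlated best with its own number, and the numbers were not treated as pairs. Depth limits the rare members: 11 had under 10 counts in at least 1 library.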
